A study of Homo sapiens with 18 samples.

Results

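The genes described here encode the carrier that brings glucose into the cell and 9 enzymes that turn it into pyruvate and lactate: SLC2A1, HK2, GPI, PFKP, ALDOA, GAPDH, PGK1, ENO1, PKM and LDHA. They were chosen by name for their role, with earlier results of these data known, by a rule that itself uses no measured value, and are 10 of the 38716 gene symbols listed in the tables. All 10 passed the filter on low counts in both assays. Messenger RNA (mRNA-seq) and ribosome footprints (Ribo-seq, the mRNA fragments that translating ribosomes shield from nuclease) were counted in IMR90, diploid fibroblasts established from human fetal lung, in 18 libraries that form 6 groups of 3 replicates. Young cells were proliferating cells at low passage. Old cells had been passaged until they stopped dividing, a state called replicative senescence. ICM cells were low-passage cells exposed for 6 days to the compound inflachromene, known to bind HMGB1 and HMGB2, abundant proteins of chromatin, whose dose for these libraries is not given in the sources used here. Per the methods of the study, each lysate was made with cycloheximide, which holds ribosomes on the mRNA, and supplied both a Ribo-seq and a poly(A)-selected mRNA-seq library. All cultures came from IMR90, so that the replicates are independently grown cultures of a single line.

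Glycolysis splits glucose into pyruvate in the cytosol and yields ATP without oxygen. Its first steps trap and rearrange the sugar at the cost of ATP, its later steps act on 3-carbon sugars and return ATP and NADH, and lactate dehydrogenase turns pyruvate into lactate and renews the NAD that GAPDH consumes. Many genes of the pathway are known targets of hypoxia-inducible factor (HIF), a transcription factor that recognises the letters ACGTG or GCGTG. Senescent fibroblasts no longer divide but stay metabolically active.

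The promoters were read from RefSeq (GRCh38.p14) in windows of 300 bases, 250 before to 50 after each listed start, and all 10 genes were found there with 17 windows. The letters ACGTG, searched on both strands, stood in 10 of these 17 windows and in at least 1 window of 7 genes (HK2, GPI, PFKP, ALDOA, GAPDH, PGK1 and LDHA), against 21.4% of all 35116 windows of this length. The letters GCGTG stood in 9 of the 17 windows and also in 7 genes (SLC2A1, HK2, PFKP, PGK1, ENO1, PKM and LDHA), against 36.5% of all windows. At CACGTG the matches of both strands overlap. The stretches of 30 bases below show ACGTG and its reverse complement CACGT in capitals, for 4 genes whose mRNA was higher in both old and ICM cells (LDHA, PGK1, HK2 and GAPDH) and for PFKP, whose mRNA was lower in both. All are on the plus strand, 5′ to 3′.
LDHA, chr11:18394470-18394499: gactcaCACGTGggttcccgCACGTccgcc
PGK1, chrX:78104043-78104072: cggACGTGacaaacggaagccgCACGTctc
HK2, chr2:74834964-74834993: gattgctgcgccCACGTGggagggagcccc
GAPDH, chr12:6535171-6535200: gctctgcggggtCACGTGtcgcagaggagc
PFKP, chr10:3069037-3069066: gccacgagcgcctACGTGatgcccggcccg
In LDHA, HK2 and GAPDH the stretch holds CACGTG, in LDHA followed by a further CACGT. PGK1 holds the motif once on each strand at separate places, and PFKP holds it once in the stretch shown, as GPI did in its window. A match is a description of the letters only, and no binding of any factor was measured in these libraries. SLC2A1, ENO1 and PKM had no ACGTG in their windows, which says nothing of sites elsewhere.

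Library size differed little in mRNA-seq, from 7902427 to 14144455 reads in the transcripts' UTRs and coding sequences (CDS), and 37.2-fold in Ribo-seq, from 46239 to 1718521 CDS reads. The CDS held 14.98% to 88.82% of the Ribo-seq reads. This share was lowest in the libraries old replicate 2 and young replicate 1 (34.35%). The numbers of the 10 genes called in Ribo-seq are given without both libraries as well. Results of other genes that use footprints are not given without them. Levels are given as CPM, in which reads are scaled to a common library size with TMM factors, and levels of different genes are compared only per kilobase of coding sequence. CPM are shares of a library, so that in these bulk samples a change in RNA per cell and a change in the number of cells that express a gene cannot be told apart. The fibroblast identity of the cells was checked with 7 markers (COL1A1, COL1A2, COL3A1, FN1, VIM, THY1 and PDGFRB), each at 65.1 CPM or more in every mRNA-seq library. Their summed level was 30460 to 34740 CPM in young, 29000 to 34090 CPM in old and 12170 to 12420 CPM in ICM cells, and all 7 fell in ICM against young. Of 10 markers of epithelial, endothelial and blood cells, 7 stayed below 1 CPM in all 9 mRNA-seq libraries and CD3E and CDH5 were at 0. The summed level of this list was 20.7 to 23.7 CPM in young, 33.7 to 36.9 CPM in old and 58.1 to 69.4 CPM in ICM cells, most of it from CD68, a lysosomal protein. The part of these shifts in the results below was not tested. The labels were checked with genes of cell-cycle arrest: HMGB1, HMGB2, LMNB1 and MKI67 mRNA fell in both old and ICM cells (HMGB1 by 1.40 and 1.73 on the log2 scale), CDKN1A (p21) rose in both, and CDKN2A rose in old (log2 0.60) and fell in ICM cells (log2 -0.25).

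Most of the pathway was higher in both ICM and old cells than in young cells at the mRNA level. In ICM against young cells, 8 of the 10 genes rose, PFKP fell and ENO1 did not pass the test at an adjusted p under 0.05. Of all 13173 genes tested, 34.9% rose and 36.1% fell in this comparison. In old against young cells 7 genes rose, PFKP and ENO1 fell and GPI did not pass, where 32.4% of all genes rose and 33.7% fell. The median log2 change of the 10 genes was 0.70 in ICM and 0.45 in old cells, against -0.01 over all genes in each of these comparisons. Both comparisons use the same 3 young libraries and are therefore not independent. The reads of the 10 genes made up 1.25% to 1.27% of the young mRNA-seq libraries, 1.44% to 1.59% of the old and 2.08% to 2.23% of the ICM libraries. GAPDH alone gave 0.539% ± 0.015 (SD, n = 3) in young, 0.668% ± 0.057 in old and 1.07% ± 0.07 in ICM cells. The other 9 genes together gave 0.715% ± 0.010, 0.847% ± 0.020 and 1.08% ± 0.01. As counted, their sum was above GAPDH in young and old cells and about the same in ICM cells. This sum is too low, because a symbol that overlaps ALDOA, described below, took part of the ALDOA reads. Its 3′ UTR column held 13920, 11900 and 12320 reads in the ICM libraries. A difference of ICM from young and old cells in this order is therefore not established.

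**Figure D1:**
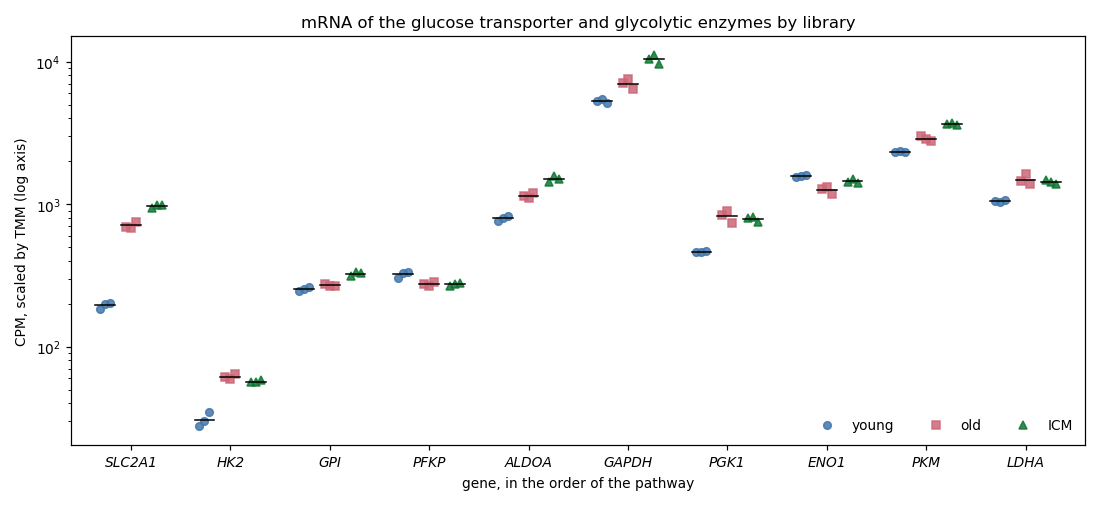
mRNA level of each gene (CPM on a log axis) in every mRNA-seq library, in the order of the pathway, with 3 replicates per condition as points and their mean as a black line. SLC2A1 shows the widest step from young (182.4 to 202.4 CPM) to old and ICM cells, while PFKP and ENO1 lie lower in old than in young cells.

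SLC2A1 encodes GLUT1, the facilitated glucose carrier of the plasma membrane in most cells. Its mRNA was at 182.4, 200.4 and 202.4 CPM in the young libraries, at 688.5, 683.6 and 754.1 CPM in the old and at 942.1, 990.4 and 991.0 CPM in the ICM libraries. The 3 groups were fully separated, with young lowest and ICM highest. The fitted change was 4.99-fold in ICM (log2 2.32, SE 0.07, adjusted p = 2.6e-18) and 3.63-fold in old against young cells (log2 1.86, SE 0.07, adjusted p = 3.67e-16), the largest of the 10 genes in both comparisons. ICM cells also exceeded old cells, by 1.37-fold (log2 0.46, SE 0.06, adjusted p = 1.4e-06).

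The next 3 enzymes work on the 6-carbon sugar. HK2, the hexokinase that phosphorylates glucose and can sit on the mitochondrial outer membrane, had the lowest level of all 10 genes. HK2 mRNA was at 27.7, 29.99 and 34.7 CPM in young, 61.4, 59.8 and 63.9 CPM in old and 56.1, 56.2 and 58.0 CPM in ICM cells. Every old and ICM library lay above every young one, and the old libraries lay slightly above the ICM libraries. HK2 rose in ICM (log2 0.88, SE 0.08, adjusted p = 1.35e-09) and in old cells (log2 1.00, SE 0.08, adjusted p = 2.38e-10), and the difference of -0.12 between ICM and old did not pass the test (adjusted p = 0.158).

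GPI, which turns glucose 6-phosphate into fructose 6-phosphate, was at 245.0, 254.8 and 263.7 CPM in young, 275.3, 267.9 and 265.2 CPM in old and 313.8, 334.2 and 328.1 CPM in ICM cells. The ICM libraries stood apart, while the lowest old library lay just above the highest young one. GPI rose in ICM (log2 0.35, SE 0.06, adjusted p = 1.39e-05). In old cells its change was 0.08 (SE 0.06, adjusted p = 0.229).

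PFKP is the platelet-type subunit of phosphofructokinase, the enzyme of the committed step. Its mRNA was at 305.4, 330.2 and 333.7 CPM in young, 274.9, 266.7 and 285.6 CPM in old and 268.5, 273.2 and 281.2 CPM in ICM cells. All 6 old and ICM libraries lay below the young ones, and the old and ICM ranges overlapped. PFKP fell by 0.24 (log2) in ICM (SE 0.06, adjusted p = 0.00136) and by 0.23 in old cells (SE 0.06, adjusted p = 0.00203). PFKM and PFKL, counted below among the other isozymes, encode further subunits of the enzyme. In young, old and ICM cells the mean mRNA level was 61.7, 59.3 and 84.4 CPM for PFKM. For PFKL it was 137.9, 161.2 and 142.4 CPM. When the mRNA reads were thinned to the depth of the paired Ribo-seq library, the calls of GPI (log2 0.22, adjusted p = 0.331) and PFKP (log2 -0.38, adjusted p = 0.0866) in ICM were lost.

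ALDOA, the muscle-type aldolase that cleaves fructose 1,6-bisphosphate, opens the part of the pathway that handles 3-carbon sugars. Its mRNA was at 766.9, 804.5 and 823.0 CPM in young, 1146, 1099 and 1196 CPM in old and 1428, 1566 and 1505 CPM in ICM cells. Again the 3 groups did not overlap. ALDOA rose by a log2 of 0.91 in ICM (SE 0.06, adjusted p = 1.38e-11) and by 0.52 in old cells (SE 0.06, adjusted p = 1.71e-07). The reads of ALDOA were shared with LOC112694756, an overlapping RefSeq symbol whose 3′ UTR column held 1.03 to 1.05 times the CDS reads of ALDOA in mRNA-seq and 1.00 to 1.01 times in Ribo-seq. Its level is therefore given too low, and summing both symbols left every count of called genes the same.

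GAPDH, which oxidises glyceraldehyde 3-phosphate and reduces NAD, was the most abundant gene of the set. It was at 5317, 5469 and 5153 CPM in young, 7065, 7615 and 6406 CPM in old and 10430, 11180 and 9567 CPM in ICM cells. The 3 ranges were separate in the order young, old, ICM. GAPDH rose in ICM (log2 0.97, SE 0.07, adjusted p = 7.28e-11) and less in old cells (log2 0.40, SE 0.07, adjusted p = 4.54e-05), and ICM exceeded old by 0.56 (SE 0.07, adjusted p = 5.92e-07).

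PGK1, the first enzyme of the pathway that returns ATP, was at 465.1, 461.6 and 466.6 CPM in young, 837.8, 889.5 and 736.1 CPM in old and 795.3, 815.2 and 755.0 CPM in ICM cells. Young libraries were tightly grouped, and the old and ICM ranges overlapped. PGK1 rose in ICM (log2 0.76, SE 0.07, adjusted p = 1.12e-09) and in old cells (log2 0.82, SE 0.07, adjusted p = 4.98e-10). A change of -0.06 between ICM and old did not pass (adjusted p = 0.461). PGK2, a copy of PGK1 without introns, was listed with 0.034 to 0.041 times the CDS reads of PGK1 in mRNA-seq and 0.043 to 0.139 times in Ribo-seq, and which of the copies such reads come from is uncertain.

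ENO1, the enolase that makes phosphoenolpyruvate, went the other way from its neighbours in old cells. Its mRNA was at 1545, 1584 and 1610 CPM in young, 1284, 1318 and 1186 CPM in old and 1423, 1497 and 1414 CPM in ICM cells. The 3 ranges did not overlap, with ICM between old and young. ENO1 fell by 0.32 on the log2 scale in old cells (SE 0.06, adjusted p = 8.74e-05), and ICM exceeded old by 0.19 (SE 0.06, adjusted p = 0.00906). In ICM against young cells the change of -0.13 did not pass (SE 0.06, adjusted p = 0.066), but did in a fit of these 2 conditions alone (adjusted p = 0.0382) and in a fit without young replicate 1 and old replicate 2 (adjusted p = 0.0405).

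PKM and LDHA end the route. PKM, the pyruvate kinase of most tissues outside liver and red blood cells, was at 2330, 2355 and 2342 CPM in young, 3009, 2844 and 2773 CPM in old and 3631, 3739 and 3602 CPM in ICM cells. The 3 groups were apart in the order young, old, ICM. PKM rose by a log2 of 0.64 in ICM (SE 0.06, adjusted p = 2.7e-09) and 0.30 in old cells (SE 0.06, adjusted p = 1.74e-04), the latter not called after thinning to Ribo-seq depth (log2 0.15, adjusted p = 0.142). LDHA, the lactate dehydrogenase subunit that favours lactate production, was at 1047, 1035 and 1069 CPM in young, 1444, 1621 and 1376 CPM in old and 1476, 1440 and 1380 CPM in ICM cells. Here old and ICM cells lay in the same range above young. LDHA rose by 0.45 in ICM (SE 0.07, adjusted p = 2.79e-06) and by 0.49 in old cells (SE 0.07, adjusted p = 8.42e-07), and ICM against old gave -0.05 (adjusted p = 0.544).

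Against old cells, ICM cells had higher mRNA levels (in CPM) of 6 of the 10 genes (SLC2A1, GPI, ALDOA, GAPDH, ENO1 and PKM), where 30.7% of all genes rose and 32.6% fell. The other 4 (HK2, PFKP, PGK1 and LDHA) had changes of -0.12 to -0.01 and did not pass. The median of the 10 was 0.23 against -0.01 over all genes, and none of the 6 changes exceeded 0.6 on the log2 scale. ALDOA differed by 0.39 (SE 0.06, adjusted p = 1.19e-05), PKM by 0.35 (SE 0.06, adjusted p = 2.99e-05) and GPI by 0.27 (SE 0.06, adjusted p = 3.55e-04). The call of GPI was lost after thinning to Ribo-seq depth (log2 0.17, adjusted p = 0.515).

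Footprints on the coding sequences rose as well, with wider errors. In ICM against young cells 5 genes rose (SLC2A1, ALDOA, GAPDH, PGK1 and PKM), where 13.7% of the 4643 genes tested rose and 12.9% fell. In old against young cells 8 rose, all except PFKP and ENO1, where 19.3% of all genes rose and 17.0% fell. Median log2 changes of the 10 genes were 0.60 and 0.57, against 0.00 and 0.02 over all genes. The ICM libraries held 225041, 78980 and 46239 CDS reads, against 54421, 685061 and 1718521 in young and 1672807, 54708 and 583798 in old cells. The 5 and 8 calls are therefore not counts at like depth. Thinned to the shallowest library, 4 of 9 genes tested were called in ICM and 2 in old cells, against 269 and 182 of all 1106 genes. Together the 10 genes took 1.99% to 2.31% of the CDS reads in young, 2.77% to 2.84% in old and 3.17% to 4.05% in ICM libraries, without overlap between the 3 conditions.

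**Figure D2:**
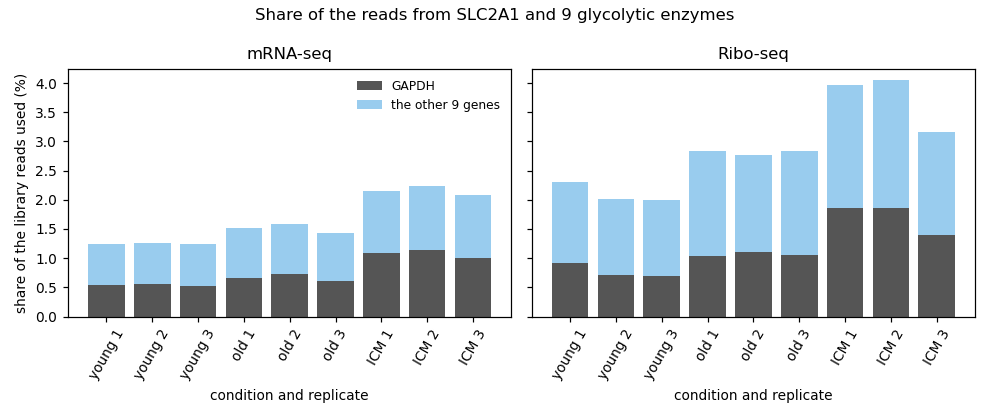
Share of the reads of each library (%) that came from the 10 genes, with GAPDH in dark grey and the other 9 genes in blue, for 9 mRNA-seq libraries (left) and 9 Ribo-seq libraries (right). In both assays the bars step up from young to old to ICM without overlap, and GAPDH and the other genes both add to the step.

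SLC2A1 again moved most. Its footprints were at 534.8, 354.8 and 378.0 CPM in young, 1668, 1569 and 1948 CPM in old and 2922, 3383 and 1850 CPM in ICM libraries, from 27 reads in young replicate 1 to 2345 reads in old replicate 1. All old and ICM libraries lay above all young ones, and the ICM and old ranges overlapped. The fitted change was 7.13-fold in ICM (log2 2.83, SE 0.20, adjusted p = 5.27e-13) and 4.51-fold in old cells (log2 2.17, SE 0.20, adjusted p = 1.4e-10). In every alternative run the change stayed within 2.61 to 2.93 in ICM and 1.92 to 2.32 in old cells.

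Among the enzymes of the 6-carbon stage, footprints were sparse. HK2 had 5 to 203 reads per library, at 118.8, 70.3 and 64.9 CPM in young, 144.4, 100.6 and 217.6 CPM in old and 108.4, 109.1 and 137.0 CPM in ICM cells. All 3 ranges overlapped. HK2 passed in old cells (log2 1.28, SE 0.25, adjusted p = 9.81e-05) and not in ICM cells (log2 0.71, SE 0.37, adjusted p = 0.158), and the call in old cells was lost without young replicate 3 (log2 1.07, adjusted p = 0.0588) and with DESeq2 (log2 1.13, adjusted p = 0.0597).

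GPI footprints were at 574.4, 458.7 and 528.1 CPM in young, 753.1, 764.6 and 759.4 CPM in old and 625.8, 832.1 and 707.8 CPM in ICM cells. Young lay below both other groups. GPI passed in old (log2 0.58, SE 0.18, adjusted p = 0.00945) and not in ICM cells (log2 0.48, SE 0.20, adjusted p = 0.0667). The call in old cells was lost without young replicate 2 (adjusted p = 0.214), young replicate 3 (0.106), old replicate 1 (0.0985) or old replicate 3 (0.0907), with log2 changes of 0.44 to 0.58. It was also lost with DESeq2 (0.0699), without the filter on low counts (0.084) and after thinning to the shallowest library (0.363).

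PFKP footprints were at 356.5, 674.4 and 683.4 CPM in young, 674.8, 442.6 and 681.4 CPM in old and 675.0, 736.6 and 548.0 CPM in ICM cells. The lowest values belonged to the libraries young replicate 1 (18 reads) and old replicate 2 (22 reads), which also had the lowest CDS shares. The changes of 0.08 in ICM (SE 0.21, adjusted p = 0.804) and 0.03 in old cells (SE 0.19, adjusted p = 0.929) did not pass and took either sign in other settings.

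In the 3-carbon stage, ALDOA footprints were at 1525, 1259 and 1239 CPM in young, 2321, 2092 and 2116 CPM in old and 3508, 2701 and 2124 CPM in ICM cells. Young was lowest throughout, and old and ICM overlapped. ALDOA rose in ICM (log2 1.12, SE 0.18, adjusted p = 7.47e-06) and in old cells (log2 0.74, SE 0.17, adjusted p = 9.57e-04). GAPDH footprints were at 9943, 7756 and 7686 CPM in young, 12420, 12090 and 12540 CPM in old and 20650, 19940 and 14750 CPM in ICM cells, with 3 separate ranges in the same order as its mRNA. GAPDH rose in ICM (log2 1.14, SE 0.15, adjusted p = 5.61e-07) and in old cells (log2 0.56, SE 0.15, adjusted p = 0.00428). Its call in old cells was lost without young replicate 2 (log2 0.46, adjusted p = 0.0981) or young replicate 3 (log2 0.45, adjusted p = 0.102).

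PGK1 footprints were at 1327, 1079 and 1043 CPM in young, 1926, 1690 and 1820 CPM in old and 1636, 1814 and 1598 CPM in ICM cells. Every old and ICM library was above every young one. PGK1 rose in ICM (log2 0.60, SE 0.17, adjusted p = 0.00861) and old cells (log2 0.72, SE 0.16, adjusted p = 7.83e-04). In ICM the call was lost without young replicate 2 (adjusted p = 0.115), young replicate 3 (0.136), ICM replicate 1 (0.107) or ICM replicate 2 (0.0933), with log2 changes of 0.47 to 0.53. ENO1 footprints were at 2892, 2803 and 2888 CPM in young, 2697, 2274 and 2982 CPM in old and 2779, 2414 and 2352 CPM in ICM cells. The ICM libraries lay just below the young ones and the old range spanned them. The change of ENO1 was -0.17 in ICM (SE 0.16, adjusted p = 0.461) and -0.09 in old cells (SE 0.15, adjusted p = 0.681), neither past the test, and the latter was 0.07 without old replicate 2.

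PKM footprints were at 5328, 5117 and 4817 CPM in young, 7893, 6559 and 7495 CPM in old and 8140, 8403 and 6530 CPM in ICM cells. Old and ICM libraries lay above young and overlapped each other. PKM rose in ICM (log2 0.61, SE 0.15, adjusted p = 0.00251) and old cells (log2 0.54, SE 0.15, adjusted p = 0.00491). The call in ICM was lost without young replicate 3 (log2 0.52, adjusted p = 0.0534) or ICM replicate 1 (log2 0.48, adjusted p = 0.106), and that in old cells without young replicate 2, young replicate 3 or old replicate 1 (log2 0.44 to 0.50, adjusted p up to 0.0963). LDHA footprints were at 2238, 2385 and 2433 CPM in young, 3337, 2877 and 3489 CPM in old and 2922, 3233 and 2786 CPM in ICM cells, again with young lowest. LDHA passed in old (log2 0.47, SE 0.15, adjusted p = 0.0158) and not in ICM cells (log2 0.34, SE 0.16, adjusted p = 0.111). The call in old cells was lost when any single young replicate, old replicate 1 or old replicate 3 was left out (log2 0.37 to 0.45, adjusted p up to 0.147).

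**Figure D3:**
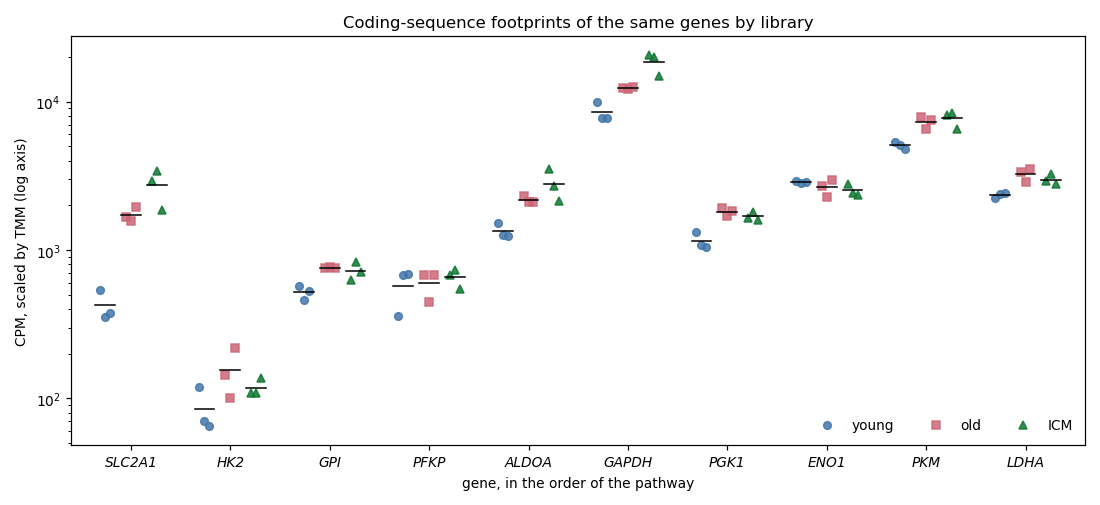
Footprints on the coding sequence of each gene (CPM on a log axis) in every Ribo-seq library, drawn as for mRNA. Young libraries lie below old and ICM libraries for SLC2A1, GPI, ALDOA, GAPDH, PGK1, PKM and LDHA, while the groups of HK2 and PFKP overlap.

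The count of genes called in Ribo-seq therefore depended on single libraries. In ICM against young cells it was 3 without young replicate 3 or without ICM replicate 1, and in old against young cells leaving out young replicate 3, young replicate 2 or old replicate 1 gave 3, 4 and 5. With DESeq2 and without the filter on low counts, 6 were called in old against young cells. Without young replicate 1 and old replicate 2 together, the counts in Ribo-seq were 5 and 8. In mRNA-seq, 9 genes were called against young in each comparison whichever lysate was left out. Between ICM and old cells only SLC2A1 (log2 0.66, SE 0.18, adjusted p = 0.0108) and GAPDH (log2 0.58, SE 0.15, adjusted p = 0.00665) passed in Ribo-seq, where 5.79% of all genes rose and 7.62% fell. Neither passed without old replicate 2, without ICM replicate 1 or without ICM replicate 2, where adjusted p-values were 0.0616 to 0.146 except for GAPDH without ICM replicate 1 (0.231), and SLC2A1 was also lost without old replicate 1 (adjusted p = 0.0956) and, narrowly, without young replicate 1 and old replicate 2 together (adjusted p = 0.0504). The other 8 genes ranged from -0.58 (HK2, SE 0.33) to 0.38 (ALDOA, SE 0.17), with a median over the 10 genes of -0.01 against -0.02 over all genes.

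**Figure D4:**
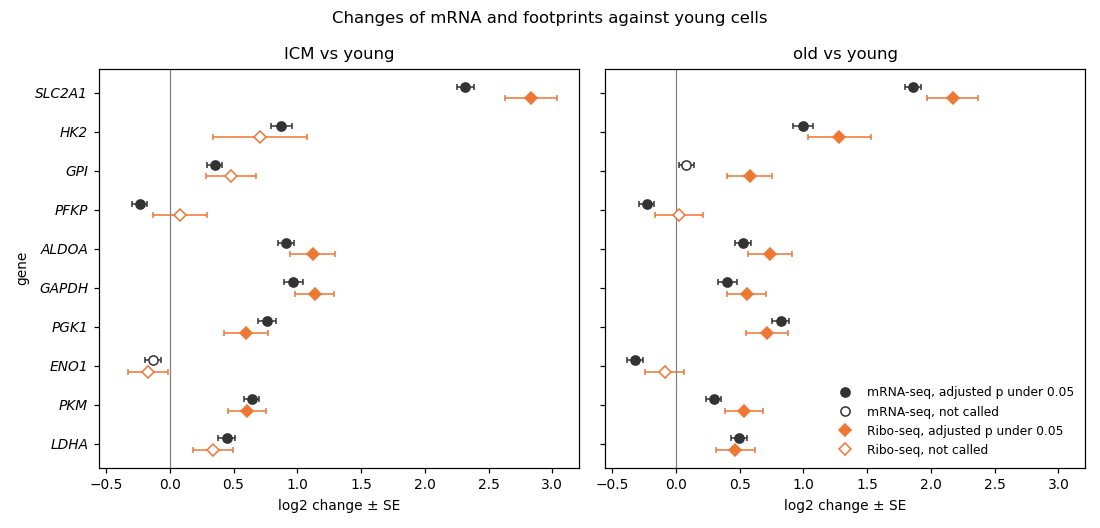
Fitted log2 change of mRNA (dark circles) and footprints (orange diamonds) with its SE for each gene, ICM against young (left) and old against young (right), filled where the adjusted p was under 0.05. SLC2A1 stands farthest to the right in both panels (2.32 and 2.83 in ICM, 1.86 and 2.17 in old cells), and PFKP and ENO1 lie between -0.32 and 0.08 in both.

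Translational efficiency, the footprints relative to the mRNA, was compared as the interaction of assay and condition. With edgeR, 0 of the 10 genes passed in ICM against young, 0 in old against young and 0 in ICM against old cells, where 2.38%, 1.43% and 0.346% of the 4618 genes tested passed. At an unadjusted p under 0.05 the counts were 1, 1 and 0, and DESeq2 called 0 in each. The gene nearest to the threshold in ICM was SLC2A1, with a log2 change of 0.53 (SE 0.21, adjusted p = 0.178), and in old cells GPI with 0.51 (SE 0.18, adjusted p = 0.191). Both passed in a fit that did not pair the libraries of a lysate (SLC2A1 0.57, adjusted p = 0.0471, and GPI 0.50, adjusted p = 0.0154). Over all 10 genes the changes ran from -0.17 to 0.53 in ICM and from -0.09 to 0.51 in old cells, with SEs of 0.16 to 0.38. Medians were 0.05 in ICM and 0.24 in old cells, against 0.06 and 0.00 over all genes, and -0.09 between ICM and old against 0.06.

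Per kilobase of coding sequence, GAPDH was the most abundant gene and HK2 the least in every condition. In young mRNA-seq libraries GAPDH stood at 4523 ± 224 RPKM (CDS reads per kilobase, scaled to library size as for CPM, mean ± SD, n = 3), followed by PKM (1083 ± 17), ENO1 (931.5 ± 10.9), LDHA (765.9 ± 10.1), ALDOA (442.9 ± 6.1), PGK1 (287.2 ± 6.7), PFKP (129.1 ± 5.4), GPI (125.7 ± 3.4), SLC2A1 (87.2 ± 5.7) and HK2 (5.20 ± 0.50). Only PFKP and GPI, neighbours in this order, overlapped. In old and ICM cells SLC2A1 had moved ahead of GPI and PFKP, at 311.4 ± 17.0 and 427.4 ± 5.6 RPKM, and LDHA ahead of ENO1, at 1089 ± 95 against 754.7 ± 36.3 RPKM in old cells. ALDOA, whose reads were shared with the overlapping symbol, ranks too low in these orders. HK2, with 10.7 ± 1.0 RPKM in old and 10.8 ± 0.1 RPKM in ICM cells, stayed last in all 3 conditions.

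The same order held in Ribo-seq at its ends. GAPDH was highest, at 8417 ± 1271 RPKM in young, 12290 ± 230 RPKM in old and 18350 ± 3212 RPKM in ICM cells, and HK2 lowest, at 31.9 ± 12.9, 56.0 ± 21.5 and 42.4 ± 6.6 RPKM. SLC2A1 footprints moved from 286.4 ± 66.2 RPKM in young, within the range of GPI and PFKP, to 1173 ± 130 RPKM in old and 1843 ± 535 RPKM in ICM cells, where they overlapped those of ALDOA, ENO1 and PGK1. The ratio of footprint RPKM to mRNA RPKM in a lysate had its lowest mean for GAPDH in all 3 conditions, with 1.86 ± 0.27 in young, 2.03 ± 0.20 in old and 2.09 ± 0.23 in ICM cells. GAPDH overlapped PFKP in young (1.88 ± 0.53) and old cells (2.30 ± 0.49) and PFKP (2.57 ± 0.40), ALDOA (2.71 ± 0.71) and ENO1 (2.29 ± 0.24) in ICM cells. The ratio was 6.23 ± 2.70 for HK2 and 3.33 ± 1.01 for SLC2A1 in young cells, and 3.93 ± 0.66 and 4.31 ± 1.25 in ICM cells. These ratios carry no test between genes.

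Nearly all footprints of the 10 genes lay in the coding sequence. The CDS held on average 94.0% to 100% of the footprints of each gene in each condition, against 46.6% to 94.0% of its mRNA reads. HK2 and SLC2A1 had the largest shares of mRNA reads in the 3′ UTR, 34.1% to 37.7% and 22.2% to 23.5%, and the columns of ALDOA put 28.0% to 29.5% in the 5′ UTR. The overlapping symbol LOC112694756 took reads of the CDS of ALDOA and almost none of its 5′ UTR, and with both symbols summed the 5′ UTR share of ALDOA came to 13.2% to 18.7% in young, 15.3% to 18.5% in old and 15.7% to 18.4% in ICM libraries, beside 17.5% to 21.2%, 13.4% to 15.7% and 8.30% to 11.8% for HK2. Over the 10 genes together, the 5′ UTR held 0.0992% to 0.591% of the footprints, while over all genes it held 2.43% to 44.7%, the highest in old replicate 2. The footprints of these genes were thus in the CDS in that library too.

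The rest of the pathway was examined through lists chosen by role, whose counts in mRNA-seq stand against 34.9% of all genes up and 36.1% down in ICM and 32.4% up and 33.7% down in old cells. Of 19 other glycolytic enzymes and isozymes 13 were tested in mRNA-seq, of which 10 rose in ICM, and 11 rose and LDHB fell in old cells, with medians of 0.48 and 0.41. The list includes PGK2, at a mean of 13.5 CPM in young, 23.5 CPM in old and 21.4 CPM in ICM cells. Its reads may be those of PGK1, so that PGK2 may not count as a separate rise. TPI1, which interconverts the triose phosphates, rose in ICM (log2 0.48, SE 0.07) and in old cells (log2 0.35, SE 0.07), and so did PGAM1, which moves the phosphate of 3-phosphoglycerate (log2 0.42 and 0.61, both SE 0.06). HK1, the widely expressed hexokinase, rose by 0.24 and 0.35 (both SE 0.06). TPI1 and PGAM1, with SLC2A1 and its 9 companions, cover every step from uptake to lactate, while HK1 acts at the same step as HK2. HK1, TPI1 and PGAM1 were named after their values were seen.

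Isozymes moved unequally. ALDOC, the brain-type aldolase, was at 14.8, 15.5 and 15.9 CPM in young, 17.2, 18.3 and 18.9 CPM in old and 67.9, 72.1 and 62.7 CPM in ICM cells. It rose by a log2 of 2.13 in ICM (SE 0.08, adjusted p = 5.74e-16) and 0.24 in old cells (SE 0.10, adjusted p = 0.0379), and ICM exceeded old by 1.89 (SE 0.08, adjusted p = 2.91e-15). Footprints of ALDOC changed by 1.04 in ICM (SE 0.42, adjusted p = 0.0597) and rose by 0.90 in old cells (SE 0.29, adjusted p = 0.0143), and its translational efficiency was lower in ICM than in old cells (log2 -1.81, SE 0.39, adjusted p = 0.0286). LDHB, the lactate dehydrogenase subunit that favours pyruvate, was at 549.1, 560.7 and 566.5 CPM in young, 244.4, 280.2 and 229.0 CPM in old and 517.6, 539.0 and 505.1 CPM in ICM cells. LDHB fell by 1.15 in old cells (SE 0.07, adjusted p = 2.3e-12), while its change in ICM was -0.10 (SE 0.07, adjusted p = 0.18) and ICM exceeded old by 1.05 (SE 0.07, adjusted p = 8.1e-12). Its footprints fell in old cells too (log2 -0.93, SE 0.17, adjusted p = 5.28e-05). BPGM, which makes 2,3-bisphosphoglycerate, rose in ICM (log2 1.12, SE 0.09) and in old cells (log2 1.74, SE 0.08), the former not called after thinning to Ribo-seq depth (log2 0.77, adjusted p = 0.139). ENO2, the neuronal enolase, rose in old (log2 0.85, SE 0.09, adjusted p = 5.65e-08) and ICM cells (log2 0.75, SE 0.09, adjusted p = 2.45e-07).

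Of 12 other carriers of glucose and lactate 10 were tested, of which 6 rose and 3 fell in ICM and 8 rose and 2 fell in old cells, with medians of 0.78 and 0.68. SLC2A12 (GLUT12) was at 8.69, 6.89 and 8.67 CPM in young, 13.1, 15.6 and 12.1 CPM in old and 260.6, 251.0 and 249.1 CPM in ICM cells. It rose by a log2 of 4.98 in ICM (SE 0.09, adjusted p = 2.25e-21) and by 0.77 in old cells (SE 0.12, adjusted p = 1.03e-05), and its footprints rose by 4.82 in ICM (SE 0.46, adjusted p = 5e-10). SLC2A10 rose by 1.22 in ICM (SE 0.06) and 0.90 in old cells (SE 0.06), and SLC2A6, a carrier of lysosomes, by 1.08 (SE 0.10) and 1.38 (SE 0.10). SLC16A3 (MCT4), the lactate exporter of glycolytic cells, was at 399.0, 415.9 and 457.7 CPM in young, 1081, 993.6 and 1190 CPM in old and 398.0, 433.7 and 437.7 CPM in ICM cells. SLC16A3 rose in old cells (log2 1.36, SE 0.07, adjusted p = 3.66e-13), its change in ICM was 0.00 (SE 0.07, adjusted p = 0.962), and ICM lay below old (log2 -1.36, SE 0.07, adjusted p = 2.2e-13). Footprints of SLC16A3 showed the same, with 1.87 in old (SE 0.17, adjusted p = 1.71e-10) and 0.40 in ICM cells (SE 0.20, adjusted p = 0.133).

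SLC16A1 (MCT1), another monocarboxylate carrier, fell by 0.70 in ICM (SE 0.07) and by 0.36 in old cells (SE 0.07). The former was not called after thinning to Ribo-seq depth (log2 -0.30, adjusted p = 0.465). SLC16A7 (MCT2) was at 11.5, 10.99 and 13.7 CPM in young, 6.77, 7.04 and 7.79 CPM in old and 28.8, 24.5 and 31.0 CPM in ICM cells. It thus moved in opposite directions, a fall of 0.75 in old (SE 0.14, adjusted p = 5.37e-05) and a rise of 1.22 in ICM cells (SE 0.11, adjusted p = 1.18e-09). SLC2A14, which shares most of its sequence with SLC2A3, fell by 0.24 in ICM (SE 0.08, adjusted p = 0.0116), and its direction is uncertain. Its 5′ UTR column held 450, 667 and 680 reads in young and 452, 324 and 478 in ICM libraries. Its CDS column held 69.3, 109.7 and 99.8 reads in young and 228.7, 188 and 202 in ICM libraries. The fall became a rise of 0.92 with CDS reads alone (adjusted p = 2.41e-07). It was lost without young replicate 3 (adjusted p = 0.0714) or ICM replicate 2 (adjusted p = 0.0604).

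**Figure D5:**
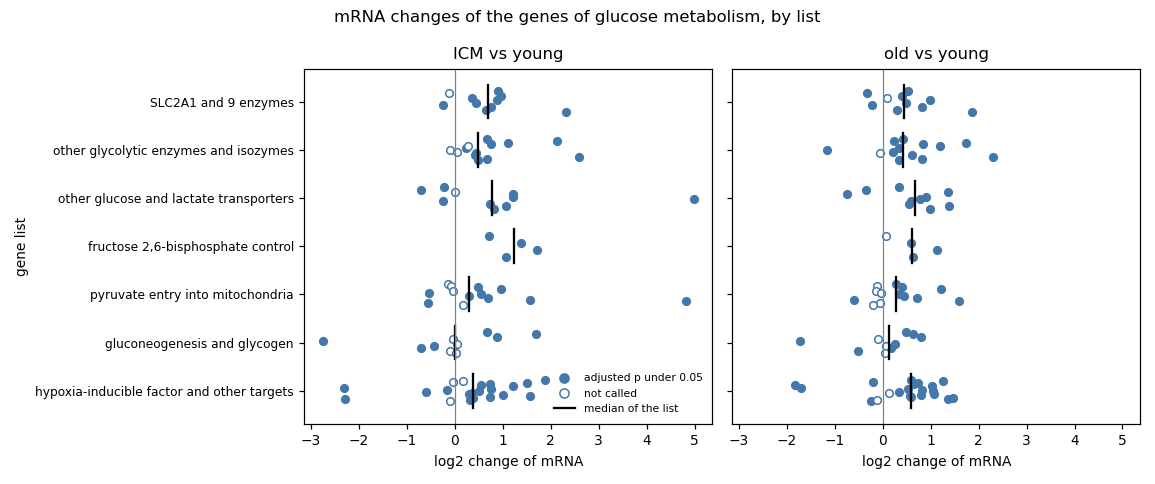
Fitted log2 change of the mRNA of each tested gene, by list, ICM against young (left) and old against young (right), with filled points at an adjusted p under 0.05 and a black line at the median of the list. SLC2A12 (4.98) and PDK4 (4.82) lie farthest to the right in ICM, and PCK2 (-2.75), DDIT4 (-2.32) and TXNIP (-2.30) farthest to the left.

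Fructose 2,6-bisphosphate is the strongest activator of phosphofructokinase. Of 5 genes that set its level 4 were tested, and all 4 rose in ICM and 3 in old cells, with medians of 1.23 and 0.61. PFKFB3, the kinase with the highest ratio of making to removing it, was at 61.7, 64.0 and 65.7 CPM in young, 94.5, 88.9 and 104.1 CPM in old and 166.6, 164.5 and 166.4 CPM in ICM cells. PFKFB3 rose by a log2 of 1.38 in ICM (SE 0.07, adjusted p = 2.58e-14) and 0.58 in old cells (SE 0.07, adjusted p = 1.19e-07), and its footprints rose by 2.35 (SE 0.33, adjusted p = 1.37e-06) and 1.28 (SE 0.28, adjusted p = 4.7e-04). PFKFB4 rose by 1.71 in ICM (SE 0.11) and 1.12 in old cells (SE 0.11). TIGAR, a p53 target that removes the activator, rose by 1.08 in ICM (SE 0.07, adjusted p = 1.03e-11) and by 0.63 in old cells (SE 0.08, adjusted p = 1.73e-07). The genes that rose thus included makers and a remover of the activator in both comparisons.

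Genes of pyruvate entry into mitochondria were mixed, with 7 of 13 up and 2 down in ICM and 7 up and 1 down in old cells, and medians of 0.30 and 0.28. PDK4, a kinase that switches off pyruvate dehydrogenase, was at 10.4, 9.33 and 10.49 CPM in young, 24.8, 25.4 and 41.1 CPM in old and 260.1, 383.4 and 206.4 CPM in ICM cells. PDK4 rose by a log2 of 4.82 in ICM (SE 0.21, adjusted p = 3.13e-15) and by 1.60 in old cells (SE 0.24, adjusted p = 4.25e-06), and its footprints by 4.35 (SE 0.39, adjusted p = 1.01e-10) and 1.66 (SE 0.41, adjusted p = 0.0019). MPC2, a subunit of the mitochondrial pyruvate carrier, rose by 0.96 in ICM (SE 0.09) and 1.22 in old cells (SE 0.09). PDHB, a subunit of pyruvate dehydrogenase, fell by 0.53 in ICM (SE 0.08), not called after thinning to Ribo-seq depth (adjusted p = 0.21), and PDP1, its phosphatase, fell by 0.55 (SE 0.13, adjusted p = 5.51e-04). In old cells their changes of -0.03 and -0.05 did not pass (adjusted p = 0.771 and 0.722).

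Gluconeogenesis and glycogen genes had medians of 0.00 in ICM and 0.13 in old cells, with 3 of 10 up and 3 down in ICM, near the shares over all genes, and 5 up and 2 down in old cells. PCK2, the mitochondrial enzyme that makes phosphoenolpyruvate, fell by 2.75 in ICM (SE 0.10, adjusted p = 9.43e-17) and by 1.71 in old cells (SE 0.09, adjusted p = 2e-13). The glycogen makers GBE1 and GYS1 rose by 1.68 (SE 0.07) and 0.87 (SE 0.07) in ICM and by 0.63 (SE 0.07) and 0.79 (SE 0.07) in old cells. The glycogen phosphorylase PYGB fell by 0.70 in ICM (SE 0.07) and rose by 0.17 in old cells (SE 0.07, adjusted p = 0.0327). PYGL fell by 0.51 in old cells (SE 0.07), and its change of -0.09 in ICM did not pass (adjusted p = 0.219).

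Of 22 genes for HIF, its regulators and its other targets 21 were tested, of which 14 rose and 4 fell in ICM and 15 rose and 4 fell in old cells, with medians of 0.39 and 0.60. HIF1A itself was at 360.6, 404.2 and 446.7 CPM in young, 486.2, 492.7 and 548.7 CPM in old and 262.6, 279.8 and 256.7 CPM in ICM cells. HIF1A mRNA thus fell in ICM (log2 -0.60, SE 0.07, adjusted p = 2e-07) and rose in old cells (log2 0.33, SE 0.07, adjusted p = 3.88e-04), with a difference between ICM and old of -0.93 (SE 0.07, adjusted p = 2.13e-10). HIF1A footprints fell in ICM (log2 -0.86, SE 0.21, adjusted p = 0.00237), while their change of -0.18 in old cells did not pass (SE 0.18, adjusted p = 0.463). The activity of HIF is set mainly through the stability of its protein, which was not measured here. Among the targets, ADM (adrenomedullin) rose by 1.89 in ICM and 0.58 in old cells (both SE 0.06), NDRG1 by 1.56 and 0.56 (both SE 0.06), and P4HA2, a collagen prolyl hydroxylase, by 0.39 (SE 0.08) and 1.46 (SE 0.07). DDIT4, an inhibitor of mTORC1, fell by 2.32 in ICM (SE 0.13) and by 1.69 in old cells (SE 0.13), while CA12, a carbonic anhydrase, fell by 1.83 in old (SE 0.11) and rose by 0.54 in ICM cells (SE 0.09, adjusted p = 9.53e-06). TXNIP, which binds thioredoxin and lowers glucose uptake by removing GLUT1 from the membrane, was at 103.4, 107.2 and 94.5 CPM in young, 273.2, 274.8 and 231.6 CPM in old and 24.7, 18.4 and 18.5 CPM in ICM cells. TXNIP thus moved in opposite directions, by -2.30 in ICM (SE 0.10, adjusted p = 4.25e-15) and by 1.35 in old cells (SE 0.08, adjusted p = 4.34e-12). Its footprints moved in the same directions, by -1.08 (SE 0.34, adjusted p = 0.0157) and 1.60 (SE 0.20, adjusted p = 1.06e-07).

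In Ribo-seq fewer genes of these lists were deep enough to test. Over all 4643 genes tested, 13.7% rose and 12.9% fell in ICM, and 19.3% rose and 17.0% fell in old cells. Of the other glycolytic enzymes 10 were tested, of which 2 rose in ICM, near the share over all genes, and 7 rose and LDHB fell in old cells. The list includes PGK2, with footprints at a mean of 134.2 CPM in young, 219.5 CPM in old and 169.1 CPM in ICM cells. These too may be reads of PGK1, so that PGK2 may not count as a separate rise. Of the other carriers 7 were tested, and 3 rose in ICM and 3 in old cells. Of the HIF list 15 were tested, with 6 up and 3 down in ICM and 8 up and 1 down in old cells. EPAS1 (HIF2A), named after its value was seen, had a higher translational efficiency in old than in young cells (log2 1.18, SE 0.22, adjusted p = 7.44e-04). It was the only 1 of the 15 genes of the HIF list tested to pass in this comparison, where 1.43% of all genes passed. Its value without young replicate 1 and old replicate 2 is not given.

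Across the 9 mRNA-seq libraries, the gene with the pattern nearest to each of the 10 was found among 10809 genes by the root mean square (RMS) difference of the centred log2(CPM + 1) values. The nearest genes were SLC4A4 to SLC2A1 (0.106), PLEKHB2 to HK2 (0.0579), USP5 to GPI (0.042), PPP1R15B to PFKP (0.045), CDIPT to ALDOA (0.0499), TIMMDC1 to GAPDH (0.062), WLS to PGK1 (0.0483), EDARADD to ENO1 (0.0299), ATP6V1B2 to PKM (0.0366) and TRAPPC3 to LDHA (0.036). These libraries fall into 3 conditions, so that many genes share such a pattern. Within the 10 genes, SLC2A1 was far from all others, with HK2 nearest at 0.598, while PFKP and ENO1 were nearest to each other (0.108), and so were GPI and PKM (0.127) and HK2 and PGK1 (0.14). GAPDH was nearest to ALDOA (0.131), ALDOA to PKM (0.13) and LDHA to PGK1 (0.155).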

How the data were processed

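Ribo-seq and poly(A) mRNA-seq of IMR90 were deposited as estimated counts per gene symbol, in separate columns for 5′ UTR, CDS and 3′ UTR, without scaling by the authors. Of the values above 0, 14.06% to 23.21% per library were not whole. The submitters' processing notes name GRCh37, STAR 2.6.0c, featureCounts, DESeq2 and deepTools, and the annotation of these tables is not given in the sources used here. Groups and replicate numbers came from the sample titles.

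As the study did, footprints were taken from the CDS and mRNA from UTRs and CDS summed, rounded to whole numbers. Each assay was fitted over its 9 libraries by the quasi-likelihood test of edgeR 4.0.16 (R 4.3.3) with TMM factors and filterByExpr, two-sided, with Benjamini-Hochberg adjustment over all genes and calls at an adjusted p under 0.05. Translational efficiency was the interaction of assay and condition over 18 libraries, with the lysate as a block because both of its libraries share it by design. Deviations of such libraries from their group means correlated with r of -0.0788 to 0.135. The study used anota2seq and a threshold of 0.15 instead. The fits were tested on simulated data. Coding lengths are those of Ensembl canonical transcripts in GENCODE v44lift37.

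The 10 genes and the lists were chosen with earlier results of these data known. From each of the 6 pathway lists, up to 2 called genes with the largest rise and 2 with the largest fall against young in mRNA-seq were named, with a mean of at least 5 CPM and no overlap between replicates, and for each of the 10 genes the gene nearest in pattern. HK1, PFKM, PFKL, TPI1, PGAM1, HIF1A and EPAS1 were named in addition, after their values were seen. Alternatives were DESeq2 1.42.0, RLE scaling, other filters and thresholds, CDS reads only, thinning, a replicate block, and leaving out lysates. Summing ALDOA and PGK1 with overlapping or near-identical symbols was added after seeing the data.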

Additional observations from a re-analysis of the deposited data

Results flagged for a closer look

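Footprints outside the coding sequence were not part of the comparisons. In the 3′ UTR of SLC2A1 all 3 old libraries stood above the young ones, with 27, 7 and 8 reads in old replicates 1, 2 and 3 against 0, 1 and 1 in the young replicates. The lowest old value was 16.4 CPM and the highest young value 1.6 CPM. The ICM libraries had 0, 1 and 1 reads (up to 22.8 CPM). These reads were 0.833% to 8.19% of the SLC2A1 footprints in old cells, and over all genes the 3′ UTR held 3.51% to 14.8% of the reads in old libraries and 1.40% to 12.4% in young libraries. These ranges overlap, and young replicate 1, with 12.4%, had no read in the 3′ UTR of SLC2A1. The counts are few, and the difference itself was not tested.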

How the results depend on the processing

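In mRNA-seq, the number of the 10 genes called against young was 9 in both comparisons with any lysate left out, and 6 between ICM and old cells. Requiring a log2 change over 0.6 besides left 6 genes in ICM against young, 3 in old against young and 0 in ICM against old cells in mRNA-seq, where 38.4%, 32.6% and 29.4% of all genes passed, so that 3 of 10 is near the share over all genes. In Ribo-seq it left 4, 4 and 1, against 25.9%, 33.2% and 13.2%. Ribo-seq counts with a lysate left out were 3 to 5 (ICM against young), 3 to 8 (old against young) and 0 to 2 (ICM against old). Without the filter on low counts they were 3 in ICM against young and 0 in ICM against old, thinned to the shallowest library 2 in old against young, and without young replicate 1 and old replicate 2 together 1 in ICM against old. Deviations of libraries with the same replicate number in different conditions correlated with r of -0.198 to 0.274. In mRNA-seq replicate 3 gave 0.187 (young and ICM), 0.274 (young and old) and 0.146 (old and ICM), while replicates 1 and 2 gave values of both signs. With a replicate block, 10 genes (8 up, 2 down) were called in ICM against young mRNA-seq, and the other counts were the same. Without the block on the lysate, translational efficiency gave 1 call in each comparison with young.

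The direction turned for changes near 0 and for SLC2A14. PFKP footprints in ICM were -0.084 without the filter, -0.15 without young replicate 1 and old replicate 2 together, and -0.091 (without young replicate 1) to 0.16 (without young replicate 3) with a lysate left out. In old cells PFKP was -0.0020 with RLE scaling, -0.037 with a mean of at least 50 counts and -0.13 (without young replicate 1) to 0.17 (without old replicate 2) with a lysate left out. ENO1 footprints in old cells were 0.025 without both of those lysates and -0.22 (without old replicate 3) to 0.070 (without old replicate 2) with a lysate left out. SLC2A14 mRNA in ICM was 0.92 with CDS reads only and 0.25 after thinning. The cause was not tested. Of all log2 changes recomputed, 1435 kept direction and side of the threshold, 78 lost and 8 gained a call. Depth limits the Ribo-seq values of HK2, with 5 to 203 reads per library.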
